A study of Mus musculus with 10 samples.

Results

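The 6 genes described here encode the MHC class II antigen presentation machinery: Cd74, H2-Aa, H2-Ab1, H2-Eb1, H2-DMa and Ciita. The tissue was the optic nerve head of male C57Bl/6 mice aged 6 to 8 weeks, where the axons of retinal ganglion cells leave the eye. For the elevated pressure group the right eye was cannulated in its anterior chamber, its pressure was kept at 30 mmHg for 1 h, with 3 days of recovery before collection. The control group was the left eye, on which no surgery was done, and 10 mice were used in all. Each group had 5 arrays, and each array held RNA pooled from 2 nerve heads, so the side and the cannulation cannot be told apart from the pressure. The genes were found by exact gene symbol in the probe annotation, which gave 10 probe sets of 22690 on the array and 6 of 12393 genes. They were chosen because several of them were jointly higher after elevated pressure while a wider list of presentation genes was not. Their differences between the groups, and their contrast with the rest of the pathway, are therefore a description and carry no test.

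MHC class II molecules are pairs of an alpha and a beta chain that carry peptides from the endosome to the cell surface, where CD4+ T cells read them. The invariant chain, the product of Cd74, fills the groove of the new molecule until the DM protein removes its last fragment and lets a peptide bind. Dendritic cells, B cells and macrophages carry class II constitutively, resting microglia carry little of it, and interferon gamma induces it in other cells by way of the coactivator encoded by Ciita. In tissue RNA, fewer cells of a type and less RNA per cell cannot be told apart.

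The class II chain genes are known to share a promoter layout, in which an X box bound by the RFX factors lies upstream of a Y box, an inverted CCAAT bound by NF-Y, and the Ciita product joins both. The 300-base windows around the start sites, 250 bases before to 50 after, are shown for the 2 members whose window held both cores. The deviations of these 2 genes from the group means had r = 0.89 over the arrays. A link between that and the windows was not tested. The sequences are from RefSeq (GRCm38.p6), run 5′ to 3′ along the gene's strand, and carry in capitals the X box core GCAAC and the Y box core GATTGG.
H2-Aa (chr17:34287774-34288073, minus strand): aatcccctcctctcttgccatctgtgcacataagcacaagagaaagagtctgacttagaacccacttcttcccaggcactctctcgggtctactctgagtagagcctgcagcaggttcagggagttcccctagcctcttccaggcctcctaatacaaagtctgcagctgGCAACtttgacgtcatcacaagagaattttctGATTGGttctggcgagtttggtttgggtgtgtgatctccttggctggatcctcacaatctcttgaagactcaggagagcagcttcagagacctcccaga
H2-Eb1 (chr17:34305617-34305916, plus strand): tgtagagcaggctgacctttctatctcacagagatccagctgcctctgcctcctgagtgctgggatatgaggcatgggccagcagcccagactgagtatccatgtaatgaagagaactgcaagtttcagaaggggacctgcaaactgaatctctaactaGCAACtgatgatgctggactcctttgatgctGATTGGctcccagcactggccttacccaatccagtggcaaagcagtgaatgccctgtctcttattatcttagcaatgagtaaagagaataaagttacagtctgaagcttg

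GCAAC began 81 bases and GATTGG 49 bases before the annotated start of H2-Aa, and 91 and 60 bases before that of H2-Eb1. The starts of both cores were thus 32 bases apart in H2-Aa and 31 in H2-Eb1. Over 32851 windows of the same length, 35.2% held GCAAC and 16.1% held GATTGG on either strand, while 0.192% held GCAAC followed by GATTGG with starts 28 to 36 bases apart on either strand. This spacing and both cores were chosen after these sequences were seen. The same arrangement stood in the windows of 3 other class II genes of the region, of which H2-Oa and H2-Ob encode the DO protein that restrains DM, and H2-Eb2 is a second E beta chain gene. Only the stretch from core to core is given for these.
H2-Oa: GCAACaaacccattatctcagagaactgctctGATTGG
H2-Ob: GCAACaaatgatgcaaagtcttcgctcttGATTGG
H2-Eb2: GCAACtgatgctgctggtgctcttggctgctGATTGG

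Neither of the 2 windows of H2-DMa held the pair of cores, nor did the windows of H2-DMb1 and H2-DMb2, which had GATTGG without GCAAC. TGACGTCA, the palindrome that CREB-family factors bind, lay between both cores of H2-Aa. It stood in 1.79% of all windows on either strand and not in those of H2-DMa or H2-Eb1. A match of letters is a description of the window, not a binding site. Of the 6 members, 3 had a window in the table.

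One array stood apart before any class II gene was considered. Elevated pressure replicate 1 correlated with the rest at 0.974 on average, against 0.9864 to 0.9891 for the other 9. Its 3′ over 5′ signal of the Gapdh controls was 2.07, against 1.54 to 1.73, and that of actin was 2.10, against 1.65 to 2.13. The tissue label was checked on marker genes: the astrocyte gene Gfap lay between 10644 and 12631 and the myelin gene Mbp between 13490 and 15433 on the 10 arrays. Markers of neighbouring tissue were present too and varied more between pools. Photoreceptor markers summed to 802 to 6863 in elevated pressure tissue and 454 to 6463 in control tissue. Those of pigment epithelium summed to 12581 to 17805 and 8132 to 20156. The median log2 fold change, elevated pressure minus control, was 0.67 for photoreceptor markers, with 4 of 4 measured above 0. It was 0.06 for pigment epithelium, with 3 of 4 above 0, and -0.27 for oligodendrocyte markers, with 0 of 4 above 0. For genes and probe sets, differences between the groups that elevated pressure replicate 1 moved by over 1.5 times are given with and without it. For marker lists they were not computed without it.

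Of the 6 genes, 5 had a higher mean log2 value after elevated pressure, and the groups overlapped for all 6. Over all genes, 47.3% were above 0 on that scale, 10.5% reached a log2 fold change of 0.2, as 5 of the 6 members did, and 0.629% had groups that did not overlap. The median log2 fold change was 0.27 for the members and -0.01 for all genes. The limma fit called 0% of genes as higher and 0% as lower at an adjusted p under 0.05, with the lowest adjusted p at 0.849 and 492 genes (3.97%) at an unadjusted p under 0.05. Since the members were chosen on this contrast, nothing is read from their counts.

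Cd74, the invariant chain, had intensities of 7113, 7800, 5791, 5485 and 7132 in elevated pressure replicates 1 to 5, against 6131, 4711, 5683, 4258 and 6387 in control replicates 1 to 5. Of the elevated pressure arrays, 3 lay above every control array, and 2 control arrays lay below every elevated pressure array. Cd74 averaged 6664 ± 983 in elevated pressure tissue and 5434 ± 917 in control tissue (SD, n = 5 each). On the log2(intensity + 16) scale the difference was 0.30, and its 95% interval reached from -0.01 to 0.61. With 1 array left out it ran from 0.21 to 0.36. The whole spread over the 10 arrays was 1.83-fold.

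H2-Aa encodes the alpha chain of the A molecule. Its brighter probe set, 1435290_x_at, had intensities of 2823, 3781, 3049, 2130 and 2939 in elevated pressure replicates 1 to 5, against 2602, 1977, 1970, 1571 and 3164 in control replicates 1 to 5. All 5 elevated pressure arrays lay above the control median, and control replicate 5 lay above 4 of them. The mean was 2944 ± 589 in elevated pressure tissue and 2257 ± 627 in control tissue (SD, n = 5 each), with a log2 fold change of 0.40 (interval -0.03 to 0.84) that ran from 0.28 to 0.53 with 1 array left out. The dimmer probe set, 1452431_s_at, had intensities of 686, 1452, 1299, 755 and 1263 in elevated pressure replicates 1 to 5, against 1149, 658, 764, 638 and 1248 in control replicates 1 to 5. On this probe set elevated pressure replicates 1 and 4 lay among the low controls. Its log2 fold change was 0.28 (interval -0.29 to 0.85), and leaving out elevated pressure replicate 2 gave 0.16 while leaving out elevated pressure replicate 1 gave 0.43.

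H2-Ab1 encodes the beta chain that pairs with it. Its brightest probe set, 1450648_s_at, had intensities of 4489, 4944, 3266, 2990 and 3912 in elevated pressure replicates 1 to 5, against 3579, 2898, 2893, 2576 and 3875 in control replicates 1 to 5. Elevated pressure replicates 1, 2 and 5 lay above every control array, and the other 2 lay below control replicates 1 and 5. The mean was 3920 ± 817 in elevated pressure tissue and 3164 ± 540 in control tissue (SD, n = 5 each), with a log2 fold change of 0.30 (interval -0.06 to 0.65) that ran from 0.21 to 0.39 with 1 array left out. The other 2 probe sets, 1451721_a_at and 1425477_x_at, had log2 fold changes of 0.21 (interval -0.33 to 0.75) and 0.14 (interval -0.34 to 0.63). Both stood near 0 without elevated pressure replicate 2, at 0.05 and 0.01, and both were highest without elevated pressure replicate 4, at 0.35 and 0.29. For 1425477_x_at the value was 0.23 without elevated pressure replicate 1.

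H2-Eb1 encodes the beta chain of the E molecule, which the mouse strain used cannot assemble because its alpha chain gene H2-Ea is inactive. Its intensities were 1285, 2774, 2166, 1338 and 2254 in elevated pressure replicates 1 to 5, against 2000, 1317, 1425, 1136 and 2316 in control replicates 1 to 5. The values split into a high and a low set in both groups, with elevated pressure replicates 1 and 4 and control replicates 2, 3 and 4 at the low end. The mean was 1963 ± 639 in elevated pressure tissue and 1639 ± 498 in control tissue (SD, n = 5 each). The log2 fold change of 0.25 (interval -0.32 to 0.81) moved with single arrays. It was 0.11 when elevated pressure replicate 2 was left out and 0.13 when control replicate 4 was. Leaving out elevated pressure replicate 1 or control replicate 5 gave 0.38. The 3 probe sets of H2-Ea, which RefSeq lists as a transcribed pseudogene in C57BL/6J, lay between 1.00 and 17.2 on all arrays, in the lowest 2.9% of probe sets.

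H2-DMa encodes the alpha chain of DM, the peptide editor. Its intensities were 794, 1019, 798, 774 and 903 in elevated pressure replicates 1 to 5, against 810, 720, 771, 661 and 698 in control replicates 1 to 5. Only control replicate 1 reached into the elevated pressure range, and 2 elevated pressure arrays lay above it. The mean was 858 ± 103 in elevated pressure tissue and 732 ± 59.2 in control tissue (SD, n = 5 each), with a log2 fold change of 0.22 (interval 0.00 to 0.44) that ran from 0.16 to 0.26 with 1 array left out. Its spread over the arrays, 1.54-fold, was the narrowest of the 10 probe sets.

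Ciita, the coactivator without which class II genes are not transcribed, was dim on this array. Its brighter probe set, 1421211_a_at, had intensities of 59.4, 42.4, 34.3, 39.1 and 29.3 in elevated pressure replicates 1 to 5, against 49.1, 35.5, 49.1, 38.1 and 59.9 in control replicates 1 to 5. The second, 1421210_at, had 51.1, 28.2, 39.4, 39.0 and 35.6 in elevated pressure replicates 1 to 5, against 18.1, 34.2, 28.5, 54.7 and 27.9 in control replicates 1 to 5. The groups were mixed on both. The log2 fold changes had opposite signs, at -0.14 (interval -0.47 to 0.19) and 0.20 (interval -0.20 to 0.59), and were -0.25 and 0.12 without elevated pressure replicate 1. With 1 array left out the first ran up to -0.06 and the second from 0.08 to 0.34. Both probe sets lay in the lowest 18.1% of probe sets by mean log2 value, and the 16 added before the log is a large part of such values.

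**Figure D1:**
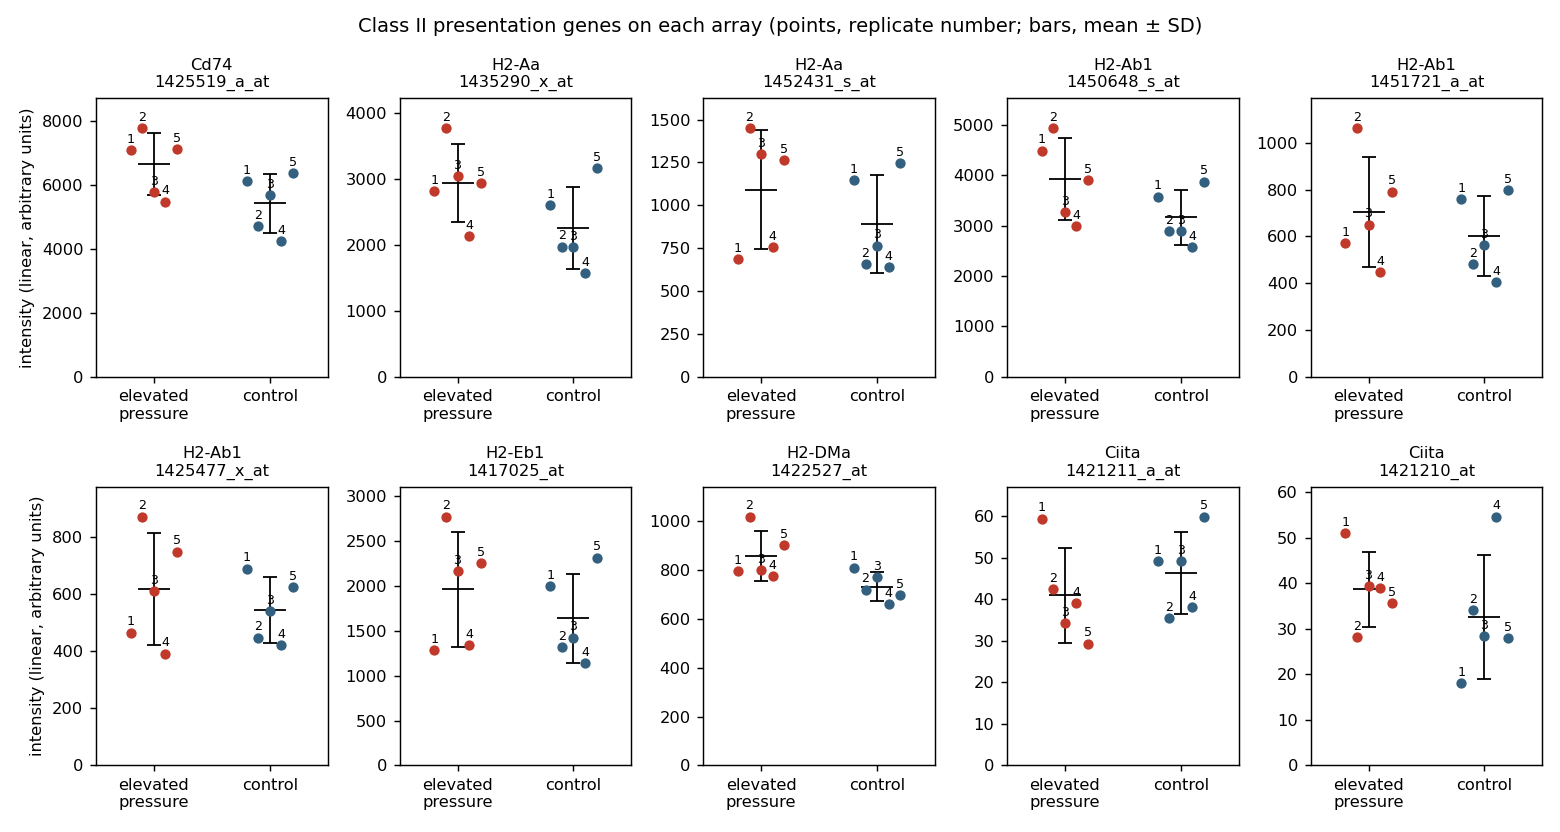
Intensity (vertical axes, linear scale) of the 10 probe sets of the 6 class II genes on each array, with points numbered by replicate, elevated pressure left of control, and bars for the mean ± SD (n = 5). Elevated pressure replicate 2 is the highest of all 10 arrays for the 8 probe sets other than those of Ciita, and the groups overlap in every panel.

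The probe sets of 1 gene did not follow each other on elevated pressure replicate 1. The ratio of 1452431_s_at to 1435290_x_at of H2-Aa was 0.243 there, against 0.333 to 0.441 on the other 9 arrays. For H2-Ab1 the ratio of 1451721_a_at to 1450648_s_at was 0.127 there, against 0.149 to 0.215 on the other 9. The ratio of 1425477_x_at to 1450648_s_at was 0.104, against 0.131 to 0.192. Between the 2 dim probe sets of H2-Ab1 the ratio on this array was 0.814, inside the range of the other 9, 0.781 to 1.04. Counted from the highest of the 10 arrays, elevated pressure replicate 1 held rank 3 for Cd74 and rank 2 for 1450648_s_at of H2-Ab1, but rank 9 for H2-Eb1. In these names a marks a probe set for alternative transcripts of 1 gene, s one that matches several transcripts, and x one in which some probes may match others. Probe positions were not used here. The Gapdh 3′ to 5′ ratio given above was the highest on this array, while that of actin was higher on elevated pressure replicate 4 (2.13, against 2.10). Whether either has a part in this split was not tested.

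**Figure D2:**
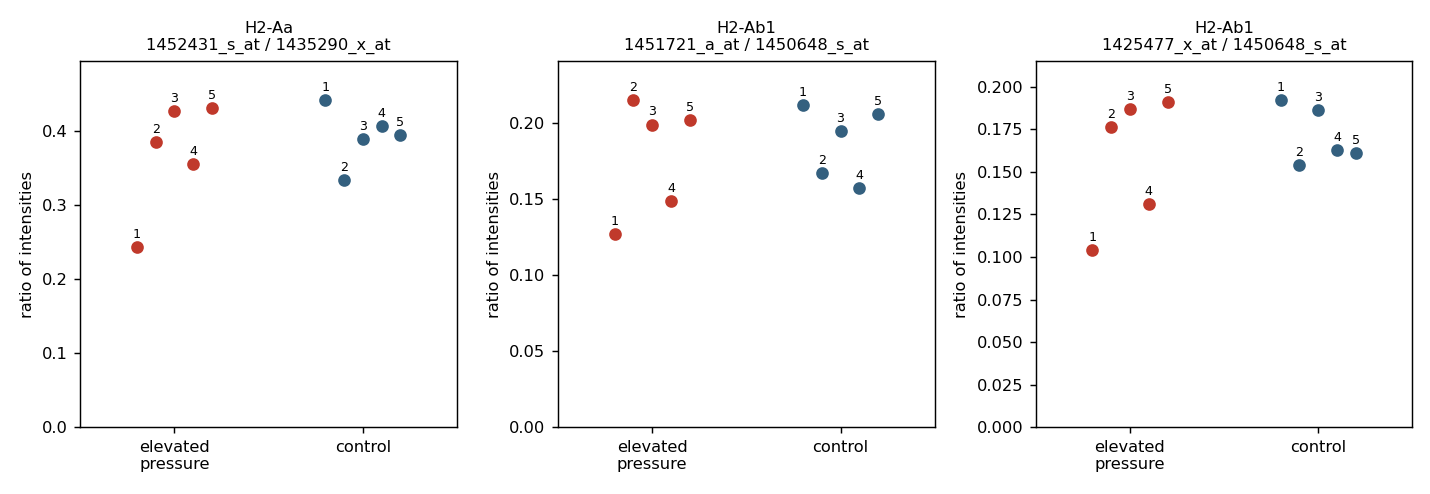
Ratio of the intensities of 2 probe sets of the same gene within each array (vertical axes, linear, from 0), with points numbered by replicate and elevated pressure left of control. Elevated pressure replicate 1 is the lowest array in all 3 panels.

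Whether the class II genes followed each other between pools was read from each array's deviation from its group mean, so that the difference between the groups, on which the genes were chosen, has no part in it. The deviations of the 5 genes other than Ciita had Pearson's r from 0.55 to 0.92 over the 10 arrays for the 10 pairs among them. In an exact two-sided test over the 14400 orderings of the arrays within their groups, with p-values adjusted over all 15 pairs, 4 pairs passed at an adjusted p under 0.05, for Pearson's r as for Spearman's rho. The share of pairs of other genes that would pass the same test was not computed. How unusual this count is among all genes is therefore not known. Cd74 and H2-Ab1 had r = 0.92 (permutation adjusted p = 0.00799) and rho = 0.93 (permutation adjusted p = 0.00937). Cd74 and H2-Aa had r = 0.84 (permutation adjusted p = 0.019) and rho = 0.87 (permutation adjusted p = 0.0208). The A chain genes H2-Aa and H2-Ab1 had r = 0.85 (permutation adjusted p = 0.00799) and rho = 0.81 (permutation adjusted p = 0.0208). H2-Aa and the E chain gene H2-Eb1 had r = 0.89 (permutation adjusted p = 0.00799) and rho = 0.83 (permutation adjusted p = 0.0208). These 4 pairs had r between 0.66 and 0.87 when the 2 arrays farthest from the median of the first gene were left out. All these tests used the brightest probe set of each gene, and the dimmer ones were not tested. With the group means kept, those of H2-Ab1 had r = 0.82 and 0.68 with the brightest, and that of H2-Aa had 0.85. Without elevated pressure replicate 1 these were 0.96, 0.90 and 0.96.

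The 4 pairs of H2-DMa had r from 0.55 to 0.69 (permutation adjusted p from 0.107 to 0.135), and H2-Eb1 had r = 0.69 with Cd74 and 0.62 with H2-Ab1 (permutation adjusted p = 0.124 and 0.135). Without elevated pressure replicate 1 these last r of H2-Eb1 were 0.89 and 0.92. The deviations of Ciita, on its brighter probe set, had r from -0.02 to 0.60 with the others (lowest permutation adjusted p = 0.135). With the group means kept, the 2 probe sets of Ciita had r = -0.21 with each other, and -0.58 without elevated pressure replicate 1. They did not follow each other, so these values give no clear reading of Ciita RNA. With 1 array left out, between 1 and 7 pairs passed for r. The count was 1 when elevated pressure replicate 2 was left out, 2 for elevated pressure replicate 4 or control replicate 4, 6 for elevated pressure replicate 1 and 7 for control replicate 5, with 4 or 5 for any of the rest. For rho the count ran from 0, reached without elevated pressure replicate 2, control replicate 1 or control replicate 4, to 7 without control replicate 2, so the number of pairs rests on single arrays. Over the 10 arrays with the group means kept, r ran from 0.66 to 0.94 for the 10 pairs without Ciita and from -0.20 to 0.34 with it. These values include the shift between the groups, and the 8 pairs that pass on them are for that reason no support beyond the choice of the genes.

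**Figure D3:**
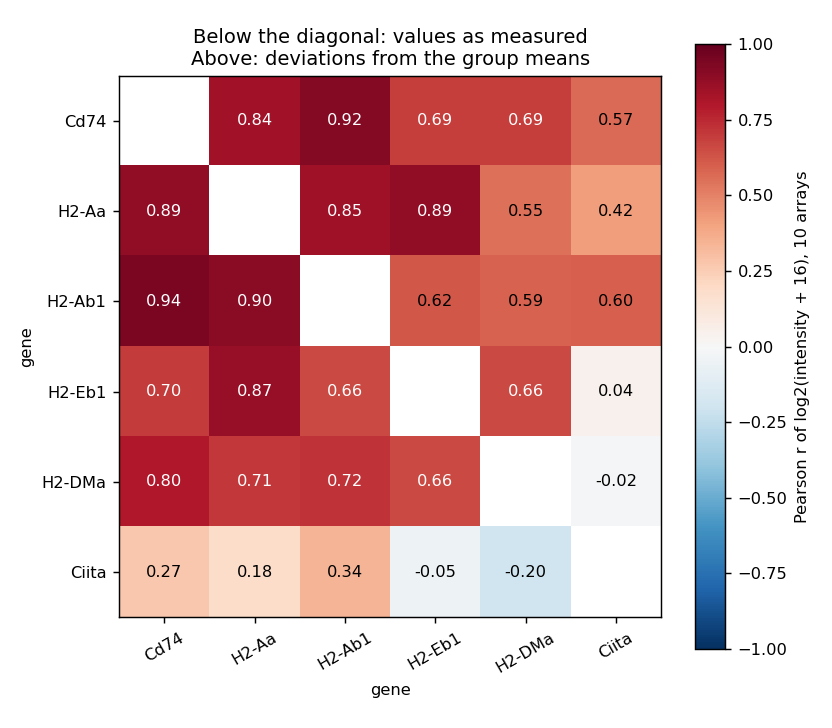
Pearson's r between the 6 class II genes over 10 arrays (colour and number), on log2(intensity + 16), with the measured values below the diagonal and deviations from the group means above it. The 10 pairs without Ciita lie between 0.66 and 0.94 below the diagonal and between 0.55 and 0.92 above it.

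**Figure D4:**
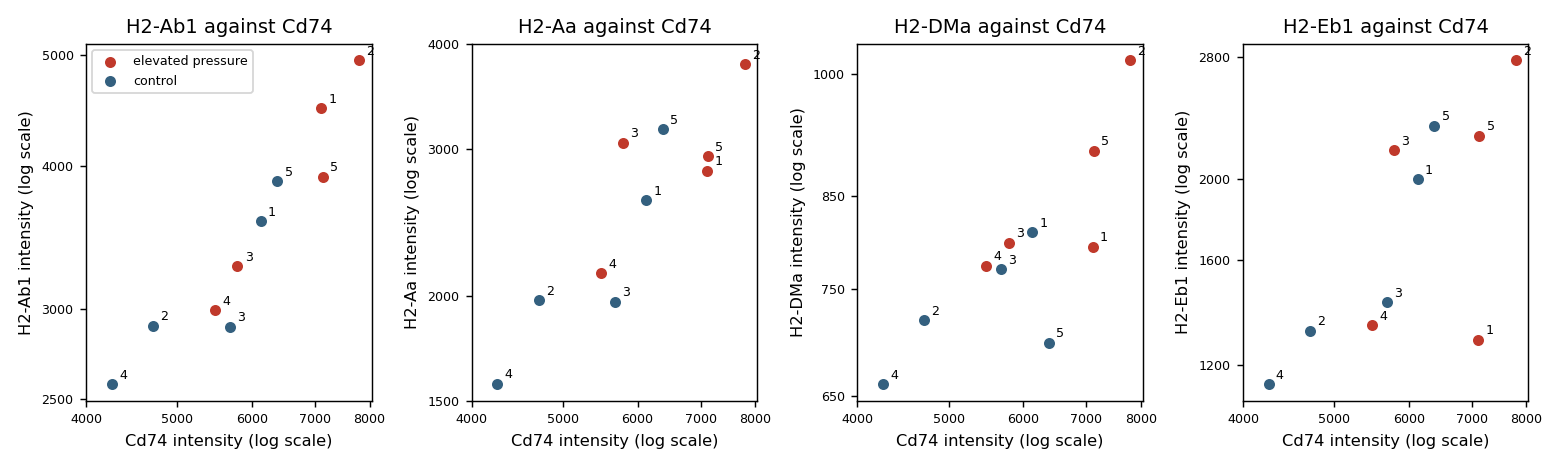
Intensity of H2-Ab1, H2-Aa, H2-DMa and H2-Eb1 against that of Cd74 (brightest probe set of each, both axes on a log scale), with elevated pressure in red, control in blue and points numbered by replicate. H2-Ab1 follows Cd74 over both groups (r = 0.94), and elevated pressure replicate 1 lies off the line for H2-Eb1.

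The genes outside the class II set whose levels were most like those of Cd74 over the 10 arrays were found among 9229 genes with a mean intensity of at least 100. Ehd1, an ATPase of endocytic recycling, came first with r = 0.92, and its other 3 probe sets had r of 0.93, 0.57 and 0.78. It was followed by the pannexin channel gene Panx1 (0.90), Wbp1l (0.89), Itgb7, the integrin beta chain of leukocytes that home to mucosa (0.88), and Itgb5 (0.87). Col5a3, a collagen V chain, the homeobox gene Prrx2 and Smim19 had r of 0.87, 0.86 and 0.85. Other probe sets of Wbp1l (0.34 and 0.24) and of Col5a3 (-0.35) did not follow Cd74. These 8 were picked as the highest of many. Of the 9229 genes, 0 reached the r of H2-Ab1 with Cd74, 2 that of H2-Aa, 17 that of H2-DMa, 119 (1.29%) that of H2-Eb1 and 2039 (22.1%) that of Ciita. All these r keep the group means, and the 8 genes all had a higher mean intensity in elevated pressure tissue. The counts thus include the shift on which the members were chosen, and are a description without support beyond that choice. In deviations from the group means the 8 genes had r from 0.78 to 0.93 with Cd74. Of the members, H2-Ab1 had 0.92, H2-Aa 0.84, H2-Eb1 and H2-DMa 0.69 each, and Ciita 0.57.

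Marker lists of cells that could carry class II were set beside Cd74. Each list's score, its mean log2 deviation per array, was correlated with Cd74. Of the 12 lists 0 passed the test of r (lowest permutation adjusted p = 0.629), and limma called 0 marker genes between the groups. The r with Cd74 of these lists and their genes keep the group means, and so include the shift on which Cd74 was chosen. In deviations from the group means, which were not tested here, r was 0.05 for microglia and macrophages and 0.48 for border macrophages. It was 0.48 for dendritic cells, 0.46 for B cells, 0.53 for T cells and 0.52 for neutrophils and monocytes. The lists of other cells had -0.31 to 0.15. The 12 microglial and macrophage markers summed to 35441 to 41906 in elevated pressure tissue and 37267 to 44205 in control tissue, with r = -0.10 and rho = 0.10 with Cd74 (permutation adjusted p = 0.934 and 0.883). It had r = -0.22 without the 2 farthest arrays and 0.22 without elevated pressure replicate 1. The summed level of the 7 markers of perivascular and border macrophages was 9245 to 10921 in elevated pressure tissue and 7951 to 11665 in control tissue, with r = 0.39 and rho = 0.31 (permutation adjusted p = 0.629 and 0.883), and r = 0.78 without the 2 farthest arrays. Of 9 dendritic cell markers, which summed to 2395 to 3217 in elevated pressure tissue and 2605 to 3224 in control tissue, the list had r = 0.26 and rho = 0.24 (permutation adjusted p = 0.761 and 0.883), and r = -0.16 without the 2 farthest arrays and 0.56 without elevated pressure replicate 1.

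Within these lists single genes followed Cd74 more closely. Itgax, the CD11c integrin chain, had r = 0.79 and the lectin gene Clec10a r = 0.76, while Flt3, a growth factor receptor of dendritic cell precursors, had r = -0.66. The rest of the dendritic cell list was mixed. Irf8 had r = 0.43 and Ccr7 0.28, but Zbtb46, the brightest of the list, had -0.32, Batf3 -0.23, Xcr1 -0.17 and Cd209a -0.08. Ccr2, the chemokine receptor of monocytes, had r = 0.66. Itgax, Clec10a, Flt3 and Ccr2 were chosen after their values were seen and are a description. Itgax averaged 221 ± 32.8 in elevated pressure tissue and 184 ± 19.3 in control tissue (SD, n = 5 each, limma adjusted p = 0.849). Of 8 B cell markers 7 were measured, and their sum was 481 to 686 in elevated pressure tissue and 527 to 600 in control tissue, with r = 0.42 and rho = 0.39 with Cd74 (permutation adjusted p = 0.629 and 0.789) and r = 0.37 without the 2 farthest arrays. The defining B cell gene Pax5 was at 1 to 6, near the lowest values of the array. T cell markers, 7 of 8 measured, summed to 444 to 734 in elevated pressure tissue and 400 to 645 in control tissue, with r = 0.56 and rho = 0.47 with Cd74 (permutation adjusted p = 0.629 and 0.716), and r = 0.09 without the 2 farthest arrays. The 5 measured markers of neutrophils and monocytes ran more widely, from 866 to 4504 in elevated pressure tissue and 718 to 6234 in control tissue, with r = 0.39 and rho = 0.49 (permutation adjusted p = 0.629 and 0.716) and r = 0.78 without the 2 farthest arrays. The 6 lists of glia, endothelium, fibroblasts, photoreceptors and pigment epithelium had r from -0.47 to 0.06. Oligodendrocyte markers scored -0.85 on elevated pressure replicate 1, against -0.14 to 0.46 on the other 9 arrays. That array was also the lowest for endothelium (-0.66, against -0.34 to 0.55) and for microglia and macrophages (-0.34, against -0.11 to 0.23). The same held for fibroblasts (-0.19, against -0.13 to 0.23) and, narrowly, dendritic cells (-0.13, against -0.12 to 0.14). On the remaining lists it lay inside the range of the other 9. The part of any of these cells in the class II values was not tested.

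The rest of the pathway was taken as a list of 37 genes by role, of which 31 were measured. Of these, 10 had a log2 fold change above 0 and 21 below, with a median of -0.08 beside -0.01 for all genes. Since the class II genes were chosen because a wider presentation list was not higher, this split is no independent finding. The limma test over all genes called 0 of the 31 in either direction, and 1 of them had an unadjusted p under 0.05, where 3.97% of all genes did.

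Of the 3 measured genes among the other class II chains and editors, 1 was above 0 and 2 below (median -0.19). H2-Ea stood at 0.24 (interval -0.04 to 0.53), at intensities of 4.4 to 17.2, near the bottom of the range. The log2 fold change of H2-DMb2, a DM beta chain, was -0.20 (interval -0.47 to 0.08) and that of H2-Oa was -0.19 (interval -0.61 to 0.23). For H2-Oa it was -0.10 without elevated pressure replicate 1, and it ran from -0.31 (elevated pressure replicate 5 left out) to -0.07 (control replicate 3 left out). The probe sets that share H2-DMb1 with H2-DMb2 name 2 genes and were not used. Of the 7 factors that act on class II promoters, 2 were above 0 and 5 below, with a median of -0.08. The RFX subunit gene Rfx5 stood at -0.08 (interval -0.36 to 0.20, and 0.00 without elevated pressure replicate 1) and Rfxap at 0.17 (interval -0.02 to 0.35). Creb1, whose product binds the CREB palindrome, stood at -0.18 (interval -0.42 to 0.07), at -0.08 without control replicate 1, and its other 3 probe sets had the opposite sign. The NF-Y subunit gene Nfyb stood at -0.39 (interval -1.03 to 0.25), and at -0.12 without elevated pressure replicate 1.

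Interferon gamma, the main inducer of Ciita, was listed at 9.9 to 14.3 in elevated pressure tissue and 4.4 to 19.5 in control tissue, near the bottom of the range. Of the 7 measured genes of its signalling, 3 were above 0 and 4 below (median -0.01). The kinase gene Jak1 had intensities of 1261, 1955, 1885, 2165 and 2229 in elevated pressure replicates 1 to 5, against 2507, 2298, 2796, 1896 and 2563 in control replicates 1 to 5. Its log2 fold change was -0.36 (interval -0.71 to 0.00, limma adjusted p = 0.849), it stood at -0.22 without elevated pressure replicate 1, and 1 of its other 2 probe sets had the opposite sign. Irf1, a transcription factor that interferon gamma induces, stood at 0.19 (interval -0.06 to 0.44), and Socs1, an inhibitor of the pathway, at 0.22 (interval -0.02 to 0.46).

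Of 7 genes of lysosomal processing, 2 were above 0 and 5 below (median -0.06). Ctss, cathepsin S, which trims the invariant chain, averaged 9002 ± 809 in elevated pressure tissue and 9497 ± 259 in control tissue (SD, n = 5 each), and its difference in log2 was -0.08 (interval -0.26 to 0.10), and -0.02 without elevated pressure replicate 1. It stood at 7582 on elevated pressure replicate 1, against 9094 to 9787 on the other 9 arrays. Ifi30, the thiol reductase of antigen processing, stood at -0.05 in log2 (interval -0.32 to 0.21) and at 0.01 without that array. Ctsl, cathepsin L, stood at -0.12 (interval -0.32 to 0.09) and at -0.04 without it. Lgmn, a lysosomal protease, had intensities of 244, 769, 1301, 1092 and 1018 in elevated pressure replicates 1 to 5, against 1164, 1308, 1705, 946 and 1273 in control replicates 1 to 5, and its log2 fold change of -0.69 (interval -1.53 to 0.16) was -0.29 without elevated pressure replicate 1.

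Of the turnover list 1 of 3 genes was measured: Cd83, which keeps class II at the surface, stood at -0.19 (interval -0.46 to 0.08), and at -0.29 without elevated pressure replicate 2. Of the 6 genes of co-stimulation 2 were above 0 and 4 below (median -0.06). Cd40, the receptor by which T cells activate presenting cells, stood at 0.24 in log2 (interval -0.08 to 0.56), with another probe set of opposite sign, and at 0.37 without control replicate 1. Cd86, a ligand of the T cell receptor CD28, stood at -0.11 (interval -0.32 to 0.10), and ran from -0.17 without control replicate 2 to -0.07 without control replicate 1. Cd274, which encodes the inhibitory ligand PD-L1, had intensities of 1116, 729, 1344, 973 and 833 in elevated pressure replicates 1 to 5, against 2713, 1003, 1803, 1440 and 766 in control replicates 1 to 5. Its groups overlapped widely, and its log2 fold change was -0.52 (interval -1.19 to 0.16). It was -0.28 without control replicate 1 and -0.73 without control replicate 5.

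**Figure D5:**
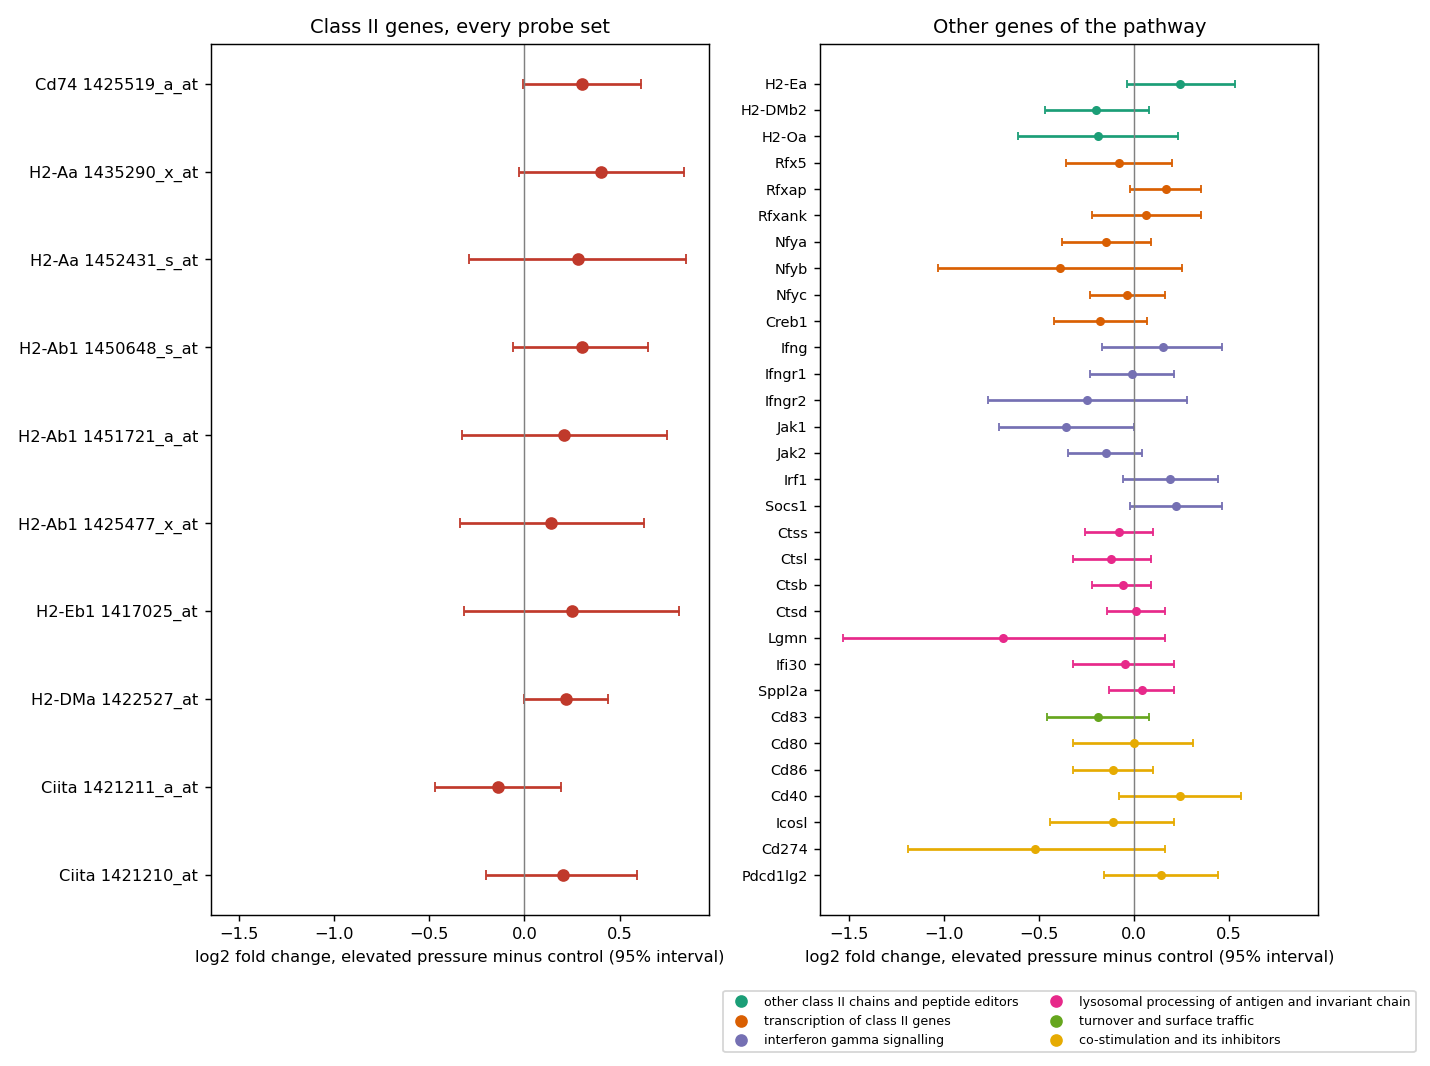
Log2 fold change, elevated pressure minus control, with 95% confidence intervals (horizontal axis, n = 5 arrays per group), for every probe set of the class II genes from the fit over all probe sets (left) and for the 31 other pathway genes from the fit over genes, coloured by role (right). Most intervals cross 0 in both panels, and that of Lgmn, from -1.53 to 0.16, is the widest. The class II genes were chosen for lying higher than the wider list, so the panels are no test of one against the other.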

How the data were processed

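RNA was measured on 10 arrays, 1 per pool of 2 optic nerve heads. Per the labels' protocols, 30 ng of total RNA per pool (RNA integrity number above 9.1) was amplified and biotin-labelled. The deposited values are linear intensities, 1 per probe set and array, from 0.69 to 20168. The array medians, 414 to 475, were unequal. How the authors summarised, background-corrected and normalized them is not given in the sources used here. No detection call was used, and precision is limited by the number of arrays.

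Values were put on the scale log2(intensity + 16), which understates changes of dim genes. Of 22690 probe sets, 64 were controls, 20380 carried a single symbol in GEO's annotation of the platform, 691 carried several and 1555 carried none. Of the 20380, 20351 matched a RefSeq gene table by Entrez identifier and 0 symbols needed an update. For each of 12393 genes the probe set with the highest mean log2 value was taken, blind to group. Elevated pressure was compared with control by limma 3.58.1 (lmFit, eBayes, R 4.3.3) without covariates, with Benjamini-Hochberg adjustment across the 12393 genes. Member intervals come from the same fit over all 20380 probe sets. Correlations over arrays were tested two-sided with 100000 permutations, and deviations from group means exactly, over all 14400 orderings within the groups. Both kinds of test were tested on simulated data. Permutations used SciPy 1.17.1 and NumPy 2.4.6, tables pandas 2.3.3 and figures Matplotlib 3.10.9, all under Python 3.11.15.

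The members and gene lists were chosen with earlier results of these data known, and the members were chosen on the pressure contrast. Their differences from that contrast are therefore described without a test. Named were all members, of each pathway list at least the 2 genes with the smallest p, defining or bright marker genes, and the 8 genes with the highest r with Cd74 at a mean intensity of at least 100. With 10 mice and 5 pools of 2 nerve heads per group, each mouse gave an eye to both groups. Which pools share mice is not stated, so the tests treat the arrays as independent, and p-values over arrays measure the spread between these pools.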

Additional observations from a re-analysis of the deposited data

Results flagged for a closer look

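In 92 groups of 5 arrays, those of the member probe sets, of their ratios within arrays and of the other pathway genes, 9 held an array far from the other 4. Chance flags about 1 in 20 groups. None of the 9 was a class II member or a ratio of member probe sets. Elevated pressure replicate 1 was low for the cathepsin genes Ctss (7582) and Ctsl (5765). Elevated pressure replicate 3 was high (2441) and control replicate 3 low (1729) for Ifngr1, a chain of the interferon gamma receptor. The others were elevated pressure replicate 2 for Ifng (9.9), elevated pressure replicate 4 for H2-Ea (4.4), elevated pressure replicate 5 for Cd86 (190), control replicate 1 for Creb1 (625) and control replicate 4 for Cd80 (164).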

How the results depend on the processing

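The count of genes past the limma test stayed at 0 over 9 alternatives of normalization, pseudocount, probe set choice, filter, variance model and block, and over 10 arrays left out in turn, both for all genes and for the pathway genes. The median log2 fold change of the 6 members ran from 0.18 to 0.37 with 1 array left out and from 0.23 to 0.30 under 8 other alternatives. Cd74, H2-Aa, H2-Ab1, H2-Eb1 and H2-DMa stayed above 0 in all of them. Some of these alternatives could not change a member's value. The block, in this balanced design, and the variance model leave each fold change as it was, and the filter only takes Ciita out of the median. Ciita ran from -0.25 to -0.06 with 1 array left out, stood at 0.03 as the mean over its probe sets, and was left out with the dimmest 50% of genes. The number of covarying pairs that passed with the group means kept was 8, also with quantile normalization or a pseudocount of 1, and ran from 4 to 10 with 1 array left out. For deviations from the group means it was 4, and 1 to 7 with 1 array left out, a range added after the data were seen. With the replicate number as a block 0 genes passed and 451 had an unadjusted p under 0.05. The member median was 0.27 under that block, which cannot change it. Arrays of equal number correlated at -0.08 to 0.21 in their deviations from the group means, and 2 of 5 elevated pressure arrays correlated best with the control array of their own number.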
